A study of Homo sapiens with 12 samples.

Results

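The 10 genes described here act at the entry into the DNA synthesis phase of the cell cycle: 6 encode inhibitors of cyclin-dependent kinases or lie beside them on chromosome 9 (CDKN2A, CDKN2B, MTAP, CDKN2C, CDKN1B and CDKN1C), and 4 encode the retinoblastoma protein and the D-type cyclin machinery that inactivates it (RB1, CCND1, CCND3 and CDK6). They were chosen by gene symbol, and all 10 were found among the 46350 named genes of the count files. In the pathway, D-type cyclins bind CDK4 or CDK6 and phosphorylate RB1. Phosphorylated RB1 releases the E2F factors, which switch on the genes of DNA synthesis. The INK4 proteins (the products of CDKN2A, CDKN2B, CDKN2C and CDKN2D) block CDK4 and CDK6, whereas the CIP/KIP proteins (from CDKN1A, CDKN1B and CDKN1C) act mainly on CDK2. MTAP, an enzyme that salvages adenine and methionine from methylthioadenosine, is no cell cycle gene, but it lies next to CDKN2A and is often lost with it in tumours.

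The RNA came from the human epithelial ovarian cancer line SKOV3, labelled cisplatin-sensitive, and from SKOV3/DDP, labelled cisplatin-resistant, each untreated or treated with paeonol (PAE), a phenol of peony root bark, with 3 libraries in each of the 4 groups. The groups are named SKOV3, SKOV3_PAE, SKOV3/DDP and SKOV3/DDP_PAE. The labels give no dose or time of PAE and no culture or batch for a library, so p-values measure the spread between these libraries, which may be partly technical. The libraries held 14610008 to 18263479 counts, and levels are CPM, counts relative to the library's size after scaling by the trimmed mean of M values. A count of 3 is 0.164 to 0.205 CPM of a library's total. Adjusted p-values are from the quasi-likelihood test of edgeR, adjusted by Benjamini and Hochberg's method over the 17133 genes tested, and a gene is said to pass under 0.05.

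The untreated SKOV3 libraries stood apart from the other 9. In them 17951 to 18240 named genes had a count, against at least 21469 in every other library, and the deviation of a gene from its mean over all libraries rose with its GC content (Spearman 0.669 to 0.675 over 15682 genes, a description), where the other libraries gave -0.534 to -0.325. Most fold changes that use untreated SKOV3 are therefore given also after the dependence on GC content and on the length of the gene had been taken out by smooth offsets (below, with the trend removed), and beside the comparison of the lines after PAE, which uses none of those libraries. The share of counts in mitochondrial genes moved with the line, at 1.29 to 1.96% in SKOV3 and 1.82 to 2.44% in SKOV3_PAE against 8.66 to 11.2% in SKOV3/DDP and 3.93 to 8.67% in SKOV3/DDP_PAE, and its part in the line differences was not tested. Markers of the labelled tissue were mixed. Of 6 epithelial markers, EPCAM, KRT8, KRT18, KRT19 and CDH1 had a larger mean in SKOV3/DDP than SKOV3, both untreated (EPCAM 289 against 1.26 mean CPM, KRT8 5279 against 3311), and KRT7 a smaller one. KRT7, a keratin of ovarian epithelium, averaged 3607 CPM in SKOV3 and 1.22 CPM in SKOV3/DDP, and PAX8, a factor of the Mullerian lineage, 29.7 and 4.13 CPM. The summed level of 5 Mullerian and ovarian markers was nevertheless higher in SKOV3/DDP (340.1 to 436 CPM against 178 to 184 CPM), nearly all of it MSLN, and SOX17 had no count in any library. Of 5 markers of intestinal epithelium, none had a count in untreated SKOV3 and all 5 had counts in SKOV3/DDP, summing to 499 to 552 CPM there and 159.6 to 238 CPM in SKOV3/DDP_PAE, led by CDH17 (339 CPM in SKOV3/DDP) and CDX2 (163 CPM). A line difference below is a difference between libraries so labelled, and whether SKOV3/DDP derives from this SKOV3 culture was not tested.

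The 9p21 sequences are shown because CDKN2A and its neighbours differed so much between the lines. CDKN2A has an upstream start for the ARF transcript and an inner start for the p16 transcript, which share later exons, so a count per gene pools both. The 250 bases before each start are given 5′ to 3′ on the gene's strand, from RefSeq on GRCh38.p14, with CG dinucleotides in capitals.
CDKN2A, ARF start, chr9:21995325-21995574, minus strand: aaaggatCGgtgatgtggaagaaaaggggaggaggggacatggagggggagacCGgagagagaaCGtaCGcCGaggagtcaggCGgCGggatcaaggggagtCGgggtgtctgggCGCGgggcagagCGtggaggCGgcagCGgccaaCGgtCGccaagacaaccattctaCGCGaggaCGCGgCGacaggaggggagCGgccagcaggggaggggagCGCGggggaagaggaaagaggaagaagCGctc
CDKN2A, p16 start, chr9:21974858-21975107, minus strand: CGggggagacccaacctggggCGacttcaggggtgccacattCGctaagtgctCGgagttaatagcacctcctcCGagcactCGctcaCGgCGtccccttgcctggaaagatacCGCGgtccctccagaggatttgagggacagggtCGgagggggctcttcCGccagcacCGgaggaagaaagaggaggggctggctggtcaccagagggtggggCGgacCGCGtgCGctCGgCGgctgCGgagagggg
CDKN2B, chr9:22009306-22009555, minus strand: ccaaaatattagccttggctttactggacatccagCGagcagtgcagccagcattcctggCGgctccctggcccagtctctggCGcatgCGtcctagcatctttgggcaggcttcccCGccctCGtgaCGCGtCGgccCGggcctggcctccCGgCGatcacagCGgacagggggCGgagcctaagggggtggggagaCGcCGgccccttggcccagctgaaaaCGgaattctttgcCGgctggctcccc
MTAP, chr9:21802386-21802635, plus strand: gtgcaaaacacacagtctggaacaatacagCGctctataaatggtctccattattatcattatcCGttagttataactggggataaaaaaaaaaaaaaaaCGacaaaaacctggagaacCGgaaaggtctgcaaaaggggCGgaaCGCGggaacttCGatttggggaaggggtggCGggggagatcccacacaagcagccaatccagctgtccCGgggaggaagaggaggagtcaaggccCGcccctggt
The ARF stretch holds 24 CG dinucleotides, the p16 stretch 20, the CDKN2B stretch 18 and the MTAP stretch 11, and the median over 35116 promoters of this length was 11. Over the 14 promoters of the members, these included, the median was 21.5. No DNA methylation was measured in this series.

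CDKN2A was abundant in SKOV3 and close to absent in SKOV3/DDP. In the files it spans bases 21967752 to 21995324 of chromosome 9, minus strand. The files name no build, but this span ends at the ARF start above. Its levels were 1613, 1666 and 1357 CPM in the untreated SKOV3 libraries and 186, 206 and 191 CPM in SKOV3_PAE. In SKOV3/DDP the counts were 0, 3 and 0, and in SKOV3/DDP_PAE again 0, 3 and 0. No SKOV3 library overlapped a SKOV3/DDP library. The ratio of SKOV3 to SKOV3/DDP was 25486 (95% exact counting interval 8721 to 123590, from 53751 against 3 counts), and after PAE 3892 (1331 to 18876, from 10908 against 3 counts). These intervals cover counting error only, and without replicate 2 of either SKOV3/DDP group no count is left in that group. Both line differences passed (adjusted p = 2.29e-10 untreated, 7.1e-10 with the trend removed, and 1.21e-09 with PAE). The gene entered the test only through its level in SKOV3, so that it had to differ.

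PAE lowered CDKN2A in SKOV3. The mean fell from 1545 ± 165 to 195 ± 10.3 CPM (SD, n = 3), a log2 fold change of -2.99 ± 0.34 (SE, edgeR adjusted p = 1.12e-06), and all 3 treated libraries lay below all 3 untreated ones. CDKN2A is GC-rich (61.4% in its longest transcript, against a median of 49% over genes with a value), and with the trend removed the fall was -0.95 (adjusted p = 0.016). In SKOV3/DDP the effect of PAE on CDKN2A was not compared, since both groups were at 3 counts.

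CDKN2B, which encodes the p15 inhibitor (bases 22002903 to 22009313, minus strand), was still detected in SKOV3/DDP although its span lies 7.58 kb from that of CDKN2A. Its levels were 9.58, 9.89 and 12.2 CPM in SKOV3 and 2.42, 4.67 and 3.55 CPM in SKOV3/DDP. With PAE they were 45.1, 39.4 and 35.7 CPM in SKOV3_PAE and 12.9, 13.6 and 10.6 CPM in SKOV3/DDP_PAE. In both lines every treated library lay above every untreated one. The rise in SKOV3/DDP was 1.80 ± 0.27 on the log2 scale (adjusted p = 0.00038) and 1.78 with the trend removed. That in SKOV3 was 1.92 ± 0.26 (adjusted p = 6.52e-06) but 0.09 (adjusted p = 0.806) with the trend removed. The log2 difference between SKOV3/DDP and SKOV3 was -1.57 ± 0.27 untreated and -1.70 ± 0.25 with PAE (adjusted p = 6.09e-05 and 5.28e-05), so CDKN2B was lower in SKOV3/DDP in both. The untreated difference was -3.34 with the trend removed.

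MTAP, on the other side of CDKN2A (bases 21802636 to 21867081, plus strand), was also detected throughout. It read 16.2, 11.3 and 16.95 CPM in SKOV3 and 56.5, 58.6 and 58.6 CPM in SKOV3_PAE. The SKOV3/DDP libraries read 41.4, 26.8 and 42.1 CPM and the SKOV3/DDP_PAE libraries 26.3, 30.8 and 32.2 CPM. The order of the lines depended on treatment: MTAP was higher in untreated SKOV3/DDP by 1.31 ± 0.23 (adjusted p = 8.58e-05), whereas with PAE the difference was -0.96 ± 0.22 (adjusted p = 0.00216). MTAP is AT-rich (39.1% GC). With the trend removed the untreated difference reversed to -1.53 (adjusted p = 1.49e-05), the rise with PAE in SKOV3 (1.96 ± 0.23, adjusted p = 1.72e-06) reversed to -1.04, and the difference with PAE was -0.98.

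Of 60 named genes within 2 Mb of CDKN2A, 14 reached 10 counts in any library, 24 had 1 to 9 counts at most and 22 had none. MLLT3, FOCAD and KLHL9, on the telomeric side, were expressed in both lines and were higher in SKOV3/DDP_PAE than in SKOV3_PAE (107 against 21.8, 55.9 against 30.0 and 70.3 against 33.6 mean CPM, adjusted p = 1.78e-06, 0.00573 and 0.00236). Nearer to MTAP lies MIR31HG, the host transcript of miR-31, which averaged 17.9 CPM in SKOV3 and 17.6 CPM in SKOV3_PAE but had 10 counts in all of SKOV3/DDP and 11 in all of SKOV3/DDP_PAE, a ratio of 96.1 with PAE (95% exact counting interval 53.5 to 193). The miR-31 precursor gene MIR31 had 12 counts in SKOV3_PAE, 11 of them in a single library, and 0 in SKOV3/DDP_PAE. Untreated, it had 0 counts in SKOV3 and 2 in SKOV3/DDP. The antisense transcript CDKN2B-AS1, which overlaps CDKN2A and CDKN2B on the opposite strand, had 23 counts in SKOV3, 106 in SKOV3_PAE and 0 in every SKOV3/DDP library. With PAE it was at least 37.8-fold lower in SKOV3/DDP, taking 3 counts over the group as the floor. DMRTA1, on the centromeric side, had 87 counts in SKOV3_PAE and 1 in SKOV3/DDP_PAE, and 7 and 1 untreated. The pseudogene CLIC4P1 beyond it had 50 and 44 with PAE, and 9 and 23 untreated. Of the interferon genes, IFNB1 had 136 and 7 counts with PAE, and 81 and 2 untreated. IFNE had 97 and 1 with PAE but 2 and 1 untreated. HACD4, a fatty acid elongation enzyme, had 210 and 21 with PAE but 16 and 18 untreated. MIR31HG, CDKN2B-AS1, DMRTA1, IFNB1 and IFNE reached 10 counts only in libraries of SKOV3 or SKOV3_PAE. The choice of genes thus favoured a difference between the lines for them. The interval given for MIR31HG covers counting error only.

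**Figure D1:**
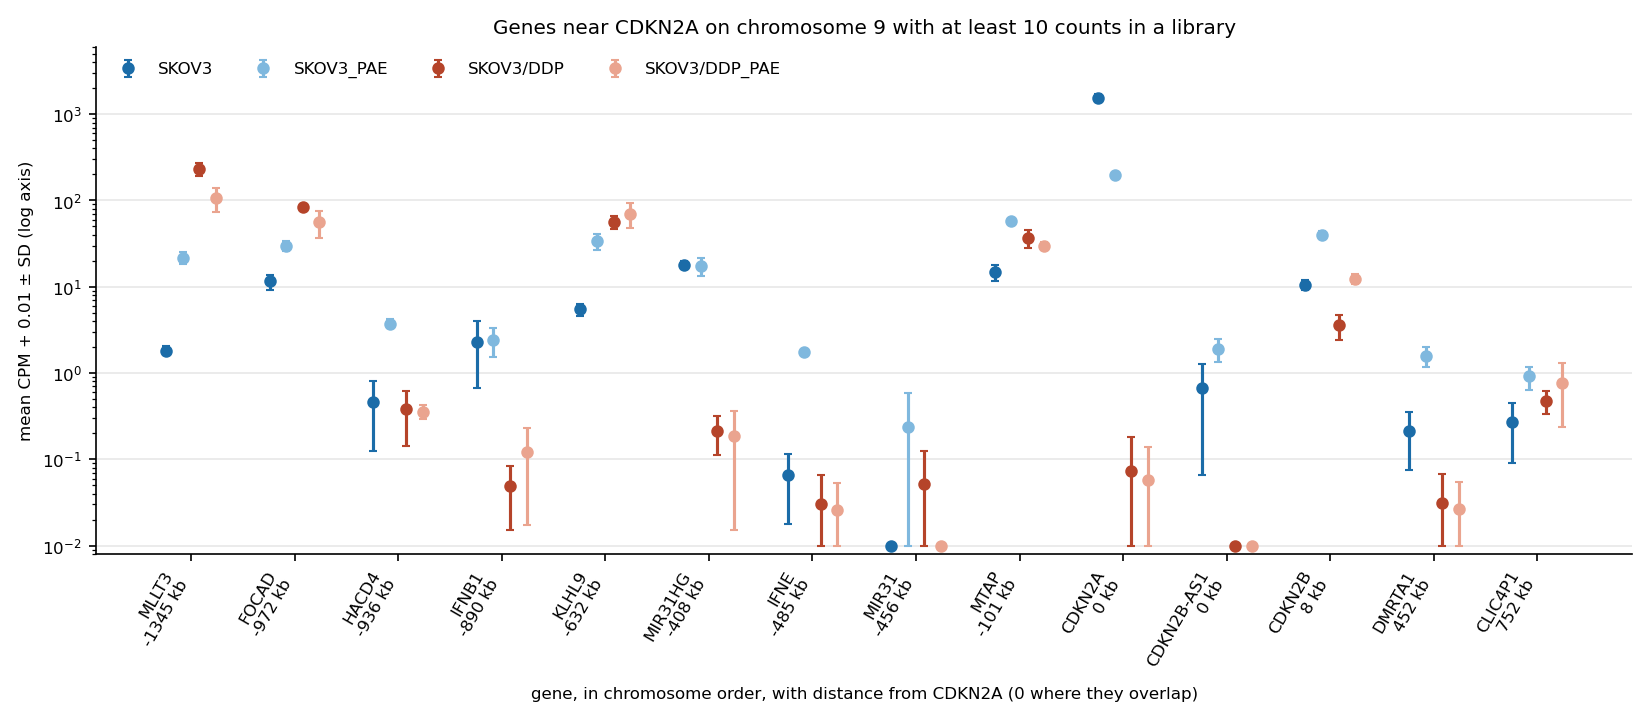
Mean CPM + 0.01 ± SD on a log axis (3 libraries a group) of the 14 genes with at least 10 counts within 2 Mb of CDKN2A, in chromosome order, with the distance from CDKN2A in kb. MTAP and CDKN2B were detected in all 4 groups, whereas CDKN2A and CDKN2B-AS1 sat at or near the bottom of the axis in both SKOV3/DDP groups.

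Genes with and without counts in SKOV3/DDP thus stood next to each other along the chromosome: MTAP was detected between MIR31HG, at 10 counts, and CDKN2A, at 3, and CDKN2B was detected beyond CDKN2A. No copy number was measured, and a loss of DNA and a silent locus cannot be told apart from these counts. No source states that the counting used strand, and reads of CDKN2A and CDKN2B cannot then be told apart from those of CDKN2B-AS1, which had at most 48 counts in a library.

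CDKN2C, which encodes the p18 inhibitor on chromosome 1 (bases 50968706 to 50974634, plus strand), was lower in SKOV3/DDP in both treatments. It read 115, 146 and 115 CPM in SKOV3 and 63.8, 71.5 and 54.1 CPM in SKOV3_PAE. In SKOV3/DDP it read 9.69, 4.23 and 8.20 CPM, and in SKOV3/DDP_PAE 5.05, 4.65 and 4.29 CPM. The lines did not overlap in either treatment. The difference was -4.09 ± 0.29 untreated (adjusted p = 7.43e-09, -1.98 with the trend removed) and -3.76 ± 0.29 with PAE (adjusted p = 5.31e-08, -3.62 with the trend removed). PAE gave -0.99 ± 0.25 in SKOV3 (adjusted p = 0.00238), a direction that reversed to 1.20 with the trend removed. In SKOV3/DDP the value of -0.66 ± 0.27 missed the threshold (adjusted p = 0.0843), and without SKOV3/DDP replicate 2 it passed (-0.94, adjusted p = 0.00973).

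CDKN1B, which encodes p27 (chromosome 12, bases 12717368 to 12722369, plus strand), was low in untreated SKOV3. Its levels were 8.60, 6.14 and 8.31 CPM in SKOV3 and 33.4, 35.5 and 30.9 CPM in SKOV3_PAE. They were 40.2, 26.2 and 39.1 CPM in SKOV3/DDP and 26.7, 27.3 and 40.9 CPM in SKOV3/DDP_PAE. The last 3 groups overlapped, and untreated SKOV3 lay below all of them. It was higher in untreated SKOV3/DDP by 2.19 ± 0.26 (adjusted p = 1.28e-06) and rose with PAE in SKOV3 by 2.11 ± 0.26 (adjusted p = 2.12e-06), and both passed with the trend removed (1.75 and 1.58). Between the lines with PAE the difference was -0.07 ± 0.24 (adjusted p = 0.816). Overlapping it on the other strand are LOC105369663, with at most 32 counts in a library, and GPR19, with at most 27.

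CDKN1C, which encodes p57 (chromosome 11, bases 2883218 to 2885775, minus strand), was low in every group. It read 6.38, 2.56 and 4.24 CPM in SKOV3 and 4.01, 2.08 and 0.684 CPM in SKOV3_PAE. The SKOV3/DDP libraries read 2.94, 1.52 and 0.857 CPM and the SKOV3/DDP_PAE libraries 1.08, 0.893 and 0.440 CPM. The groups overlapped in each of the 4 comparisons of groups, and none passed, the nearest being the untreated lines (-1.30 ± 0.61, adjusted p = 0.0585) and the lines with PAE (-1.47 ± 0.63, adjusted p = 0.06). At 8 to 72 counts a library these calls turned on the choice of method and library. The untreated lines passed under DESeq2 (-1.54, adjusted p = 0.0141), limma-voom (-1.36, adjusted p = 0.0489), without a filter (-1.29, adjusted p = 0.0203) and in a fit of only their libraries (-1.36, adjusted p = 0.0363). The lines with PAE passed under DESeq2 (-1.46, adjusted p = 0.0362) and without a filter (-1.48, adjusted p = 0.0144). With the trend removed the lines with PAE passed (-1.54, adjusted p = 0.0477) and the untreated lines gave 0.68. The untreated lines also passed without SKOV3 replicate 2 (-1.57), SKOV3_PAE replicate 1 (-1.34) or 3 (-1.33), or SKOV3/DDP replicate 1 (-1.92). PAE in SKOV3 passed without SKOV3_PAE replicate 1 (-1.65), and the lines with PAE without SKOV3_PAE replicate 3 (-1.91).

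RB1, the pocket protein that the D-type cyclin kinases phosphorylate (chromosome 13, bases 48303751 to 48481890, plus strand, 37.3% GC), was low in untreated SKOV3. It read 10.2, 3.92 and 7.54 CPM in SKOV3 and 96.9, 72.7 and 100.5 CPM in SKOV3_PAE. The SKOV3/DDP libraries read 84.6, 89.3 and 73.2 CPM and the SKOV3/DDP_PAE libraries 65.1, 71.6 and 122 CPM. Untreated SKOV3 lay below every other library, and the other 3 groups overlapped. RB1 was higher in untreated SKOV3/DDP by 3.51 ± 0.34 and rose with PAE in SKOV3 by 3.64 ± 0.34 (adjusted p = 1.58e-07 and 1.47e-07). With the trend removed these were 0.71 (adjusted p = 0.0102) and 0.59 (adjusted p = 0.0385). Between the lines with PAE the difference was -0.06 ± 0.30 (adjusted p = 0.869). LPAR6, a gene within RB1 on the opposite strand, had at most 8 counts in a library.

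CDK6, a catalytic partner of the D-type cyclins (chromosome 7, bases 92604921 to 92836573, minus strand, 39.5% GC), was likewise low in untreated SKOV3. It read 6.56, 6.22 and 8.05 CPM in SKOV3 and 104, 70.4 and 95.9 CPM in SKOV3_PAE. In SKOV3/DDP it read 79.6, 91.1 and 64.2 CPM, and in SKOV3/DDP_PAE 52.3, 38.5 and 107 CPM. The differences of 3.49 ± 0.35 between untreated lines and 3.69 ± 0.35 with PAE in SKOV3 (adjusted p = 2.28e-07 and 1.73e-07) no longer passed with the trend removed (0.38 and 0.45, adjusted p = 0.219 and 0.178). SKOV3/DDP_PAE replicate 3 was the highest of the 12. Without it CDK6 was lower in SKOV3/DDP_PAE than in SKOV3_PAE (-0.98, adjusted p = 0.00527) and than in SKOV3/DDP (-0.74, adjusted p = 0.0487), where all libraries gave -0.45 ± 0.31 (adjusted p = 0.235) and -0.25 ± 0.31 (adjusted p = 0.594).

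CCND1, the gene of cyclin D1 (chromosome 11, bases 69641156 to 69654474, plus strand), fell with PAE in SKOV3/DDP. Its levels were 1501, 826 and 1428 CPM in SKOV3/DDP and 242, 221 and 219 CPM in SKOV3/DDP_PAE. In SKOV3 they were 139, 80.7 and 117 CPM, and in SKOV3_PAE 183, 211 and 228 CPM. Every untreated SKOV3/DDP library lay above every other library, and the lines overlapped after PAE. The log2 fold change in SKOV3/DDP was -2.46 ± 0.26 (adjusted p = 5.7e-05, -2.44 with the trend removed). In SKOV3 PAE raised CCND1 by 0.88 ± 0.25 (adjusted p = 0.00511, 0.69 with the trend removed). The effects of PAE differed by -3.34 ± 0.36 (adjusted p = 1.87e-06, -3.13 with the trend removed). Untreated SKOV3/DDP exceeded untreated SKOV3 by 3.48 ± 0.28 (adjusted p = 2.13e-08, 3.27 with the trend removed), and with PAE the lines differed by 0.13 ± 0.25 (adjusted p = 0.674). Its GC content of 50.3% is close to the median.

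CCND3, the gene of cyclin D3 (chromosome 6, bases 41934933 to 42048894, minus strand, 56.2% GC), was highest in SKOV3. It read 469, 465 and 442 CPM in SKOV3 and 75.6, 136 and 64.6 CPM in SKOV3_PAE. In SKOV3/DDP it read 30.2, 26.5 and 28.6 CPM, and in SKOV3/DDP_PAE 52.9, 37.4 and 39.5 CPM. The lines did not overlap in either treatment. The difference was -4.01 ± 0.29 untreated (adjusted p = 7.91e-09, -2.58 with the trend removed) and -1.09 ± 0.26 with PAE (adjusted p = 0.0022, -0.96 with the trend removed). PAE lowered it in SKOV3 (-2.31 ± 0.26, adjusted p = 1.14e-06, -0.86 with the trend removed). In SKOV3/DDP the difference with PAE was 0.61 ± 0.26 and missed the threshold (adjusted p = 0.0938) although the groups did not overlap. It passed with the trend removed (0.76, adjusted p = 0.00992) and without SKOV3_PAE replicate 2 (0.64, adjusted p = 0.0232).

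**Figure D2:**
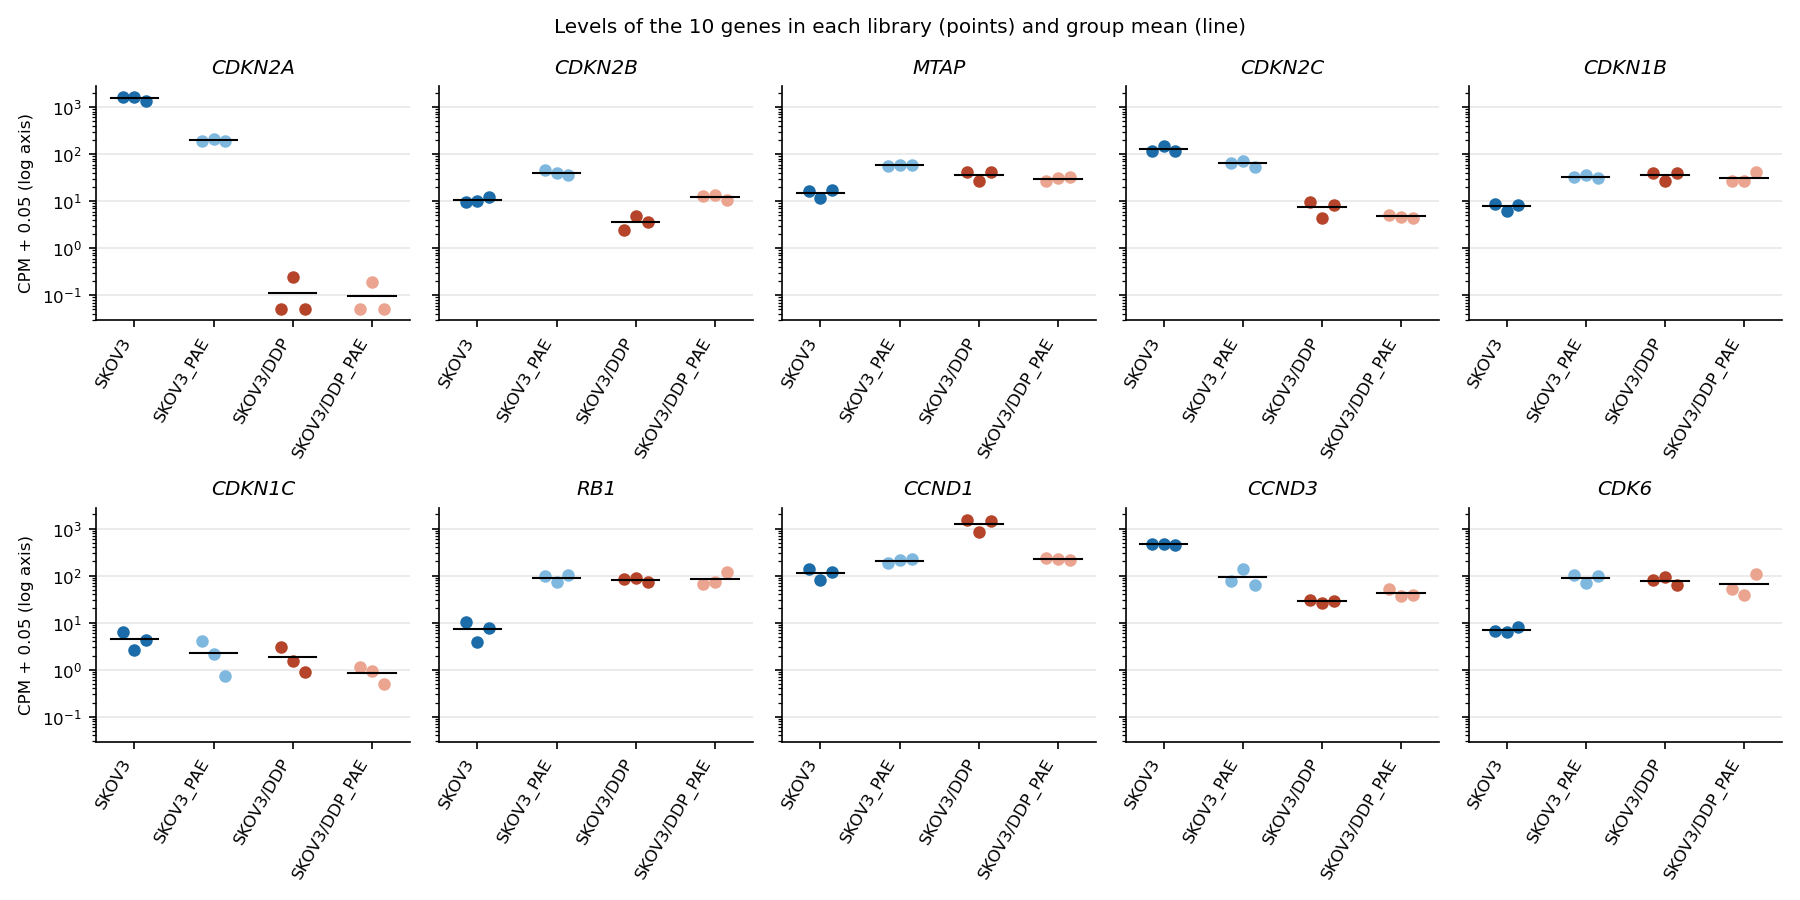
CPM + 0.05 on a log axis for each of the 12 libraries (points) with the group mean (line), 1 panel a gene. CDKN2A is at 0 or 3 counts in the 6 SKOV3/DDP libraries, RB1 and CDK6 are low in the 3 untreated SKOV3 libraries, and CCND1 is high in the 3 untreated SKOV3/DDP libraries.

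Per kilobase of gene model, CCND3 was above CCND1 in untreated SKOV3 and below it in the other 3 groups. In SKOV3 the mean level was 147 CPM per kb for CCND3 and 26.5 for CCND1, and in SKOV3_PAE 29.5 and 48.9. In SKOV3/DDP it was 9.10 for CCND3 and 295 for CCND1, and in SKOV3/DDP_PAE 13.9 and 53.6. CCND2, the remaining D-type cyclin, averaged at most 0.260 CPM in any group and was not tested. CDK4, the other partner kinase, averaged 456 CPM in SKOV3, 82.5 in SKOV3_PAE, 48.5 in SKOV3/DDP and 28.8 in SKOV3/DDP_PAE. It was lower in SKOV3/DDP untreated (-3.23 ± 0.34, or -1.81 with the trend removed) and with PAE (-1.52 ± 0.32, adjusted p = 4.25e-07 and 0.00104).

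Counted over the 10 genes, 9 passed between the untreated lines, 5 higher and 4 lower in SKOV3/DDP, where 81.8% of 17133 tested genes passed (45.8% higher and 36% lower). With PAE, 5 passed, all lower in SKOV3/DDP (CDKN2A, CDKN2B, MTAP, CDKN2C and CCND3), against 54.5% of all genes (27.5% higher and 27.1% lower). CDKN2A is counted in both line comparisons, although it entered the test only through SKOV3 and had to differ. For PAE in SKOV3, 9 passed, 6 higher and 3 lower, against 75.3% of all genes (42.6% higher and 32.7% lower). For PAE in SKOV3/DDP, 2 of the 9 compared passed, CDKN2B higher and CCND1 lower, against 26.4% of all genes (11.8% higher and 14.7% lower). The effect of PAE differed between the lines for 6 of 9, 1 more positive and 5 more negative in SKOV3/DDP, against 62.9% of all genes (25.5% and 37.4%). Without regard to direction, these shares of 10 chosen genes are near those of all genes. By direction they were not near for the lines with PAE. Nothing is read from any of them. With the trend removed the counts were 8, 6, 7, 3 and 5 in the order given. The comparisons share libraries, so their values are given side by side and not as independent results.

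**Figure D3:**
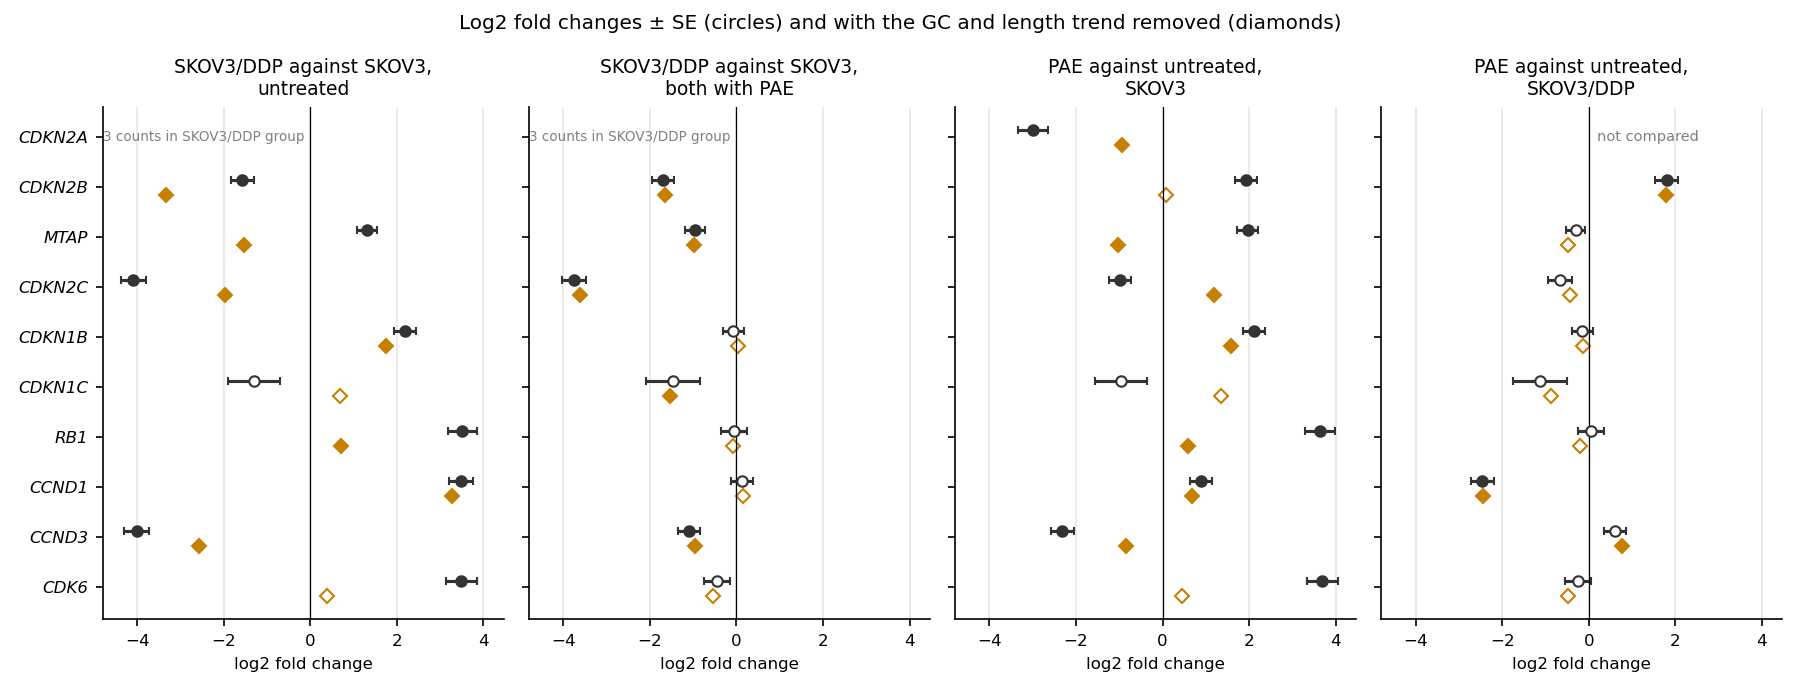
Log2 fold changes of the 10 genes in 4 comparisons from the fit of all 12 libraries (circles ± SE) and with the GC and length trend removed (diamonds), filled where the adjusted p was under 0.05. CDKN2A is drawn only for PAE against untreated SKOV3, since it was at 3 counts in each SKOV3/DDP group. The circles and diamonds lie close together in the lines with PAE and in PAE against untreated SKOV3/DDP. Where untreated SKOV3 was used they lie far apart for the genes drawn other than CDKN1B and CCND1, and most so for MTAP, RB1 and CDK6.

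Of 57 other genes of the pathway, 56 were tested. With PAE, 44 passed between the lines, 8 higher and 36 lower in SKOV3/DDP, with a median log2 fold change of -1.36 beside 0.0642 over all genes, where 54.5% of all genes passed (27.5% higher and 27.1% lower). The counts were 10 and 37 with the trend removed. Of 17 genes listed as E2F-driven genes of S phase, 15 were lower and none higher, with a median of -2.23. MCM2, a subunit of the replicative helicase, averaged 119 CPM in SKOV3_PAE and 9.07 CPM in SKOV3/DDP_PAE (-3.71 ± 0.44, adjusted p = 5.12e-06). CDT1, which loads that helicase, averaged 165 and 18.6 CPM (-3.15 ± 0.23, adjusted p = 3.08e-08). The genes that did not pass were PCNA (-0.51 ± 0.25, adjusted p = 0.102) and CDC6 (-0.76 ± 0.51, adjusted p = 0.224). Untreated, 9 of the 17 were lower and 6 higher in SKOV3/DDP, and 11 lower and none higher with the trend removed. MKI67 and CCNB1, in this list but markers of dividing cells rather than genes of S phase, were among those lower with PAE (-1.97 ± 0.42 and -1.29 ± 0.37, adjusted p = 0.00111 and 0.00863). Untreated, both were higher in SKOV3/DDP (1.75 ± 0.42 and 1.69 ± 0.38, adjusted p = 0.00126 and 0.000709). With the trend removed these 2 differences did not pass (0.48 and 0.36). PAE lowered both in SKOV3/DDP (-1.54 ± 0.42 and -1.30 ± 0.37, adjusted p = 0.014 and 0.0188). The share of dividing cells was not measured, and fewer cycling cells and less RNA per cell cannot be told apart.

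**Figure D4:**
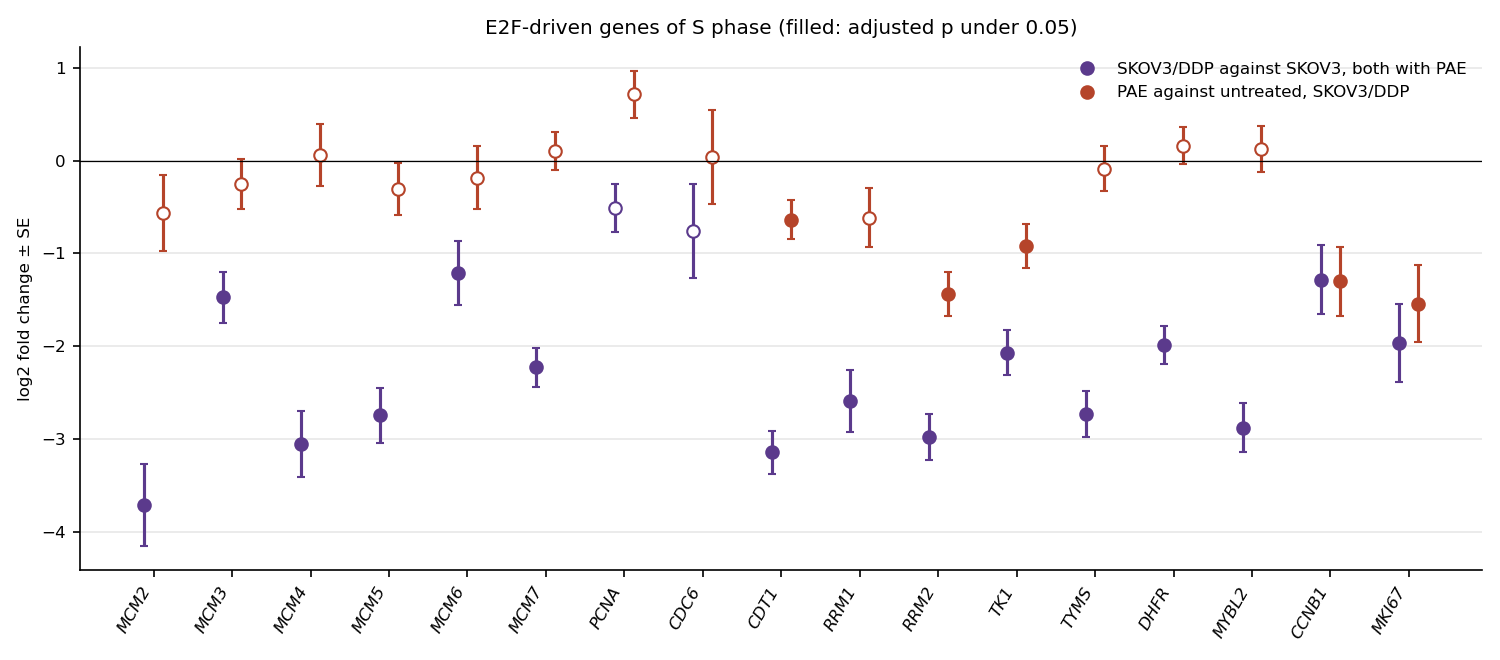
Log2 fold change ± SE of the 17 genes listed as E2F-driven genes of S phase between the lines with PAE and for PAE in SKOV3/DDP, filled where the adjusted p was under 0.05. All but PCNA and CDC6 passed between the lines with PAE, and 5 passed for PAE in SKOV3/DDP (CDT1, RRM2, TK1, CCNB1 and MKI67), all lower.

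E2F1, which drives genes of S phase, averaged 631 CPM in SKOV3, 110.2 in SKOV3_PAE, 11.5 in SKOV3/DDP and 11.9 in SKOV3/DDP_PAE. It was lower in SKOV3/DDP untreated (-5.78 ± 0.30, or -3.50 with the trend removed) and with PAE (-3.22 ± 0.27, adjusted p = 7.27e-10 and 1.3e-07). Among the E2F and DP factors 7 of 10 passed with PAE, 2 higher and 5 lower, where 27.5% of all genes were higher and 27.1% lower. The higher factors were E2F5 (1.90 ± 0.38, adjusted p = 0.00062) and E2F6, a repressor that acts without RB1 (0.88 ± 0.22, adjusted p = 0.00351). E2F4, a partner of the RB1 relatives in resting cells, was lower (-1.90 ± 0.21, adjusted p = 3.12e-06). The RB1 relatives were lower in SKOV3/DDP_PAE than in SKOV3_PAE. RBL1 averaged 8.02 against 45.2 CPM (-2.50 ± 0.32, adjusted p = 1.32e-05) and RBL2 14 against 72.9 CPM (-2.38 ± 0.34, adjusted p = 3.21e-05).

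The E2F binding letters TTTCCCGC, TTTCGCGC, TTTGCCGC and TTTGGCGC were searched on both strands in the 250 bases before each RefSeq start. They were found in 979 of 35116 promoters (2.79%), in 15 of 74 promoters of the pathway genes (20.3%, 48 genes with an entry), and in none of 14 promoters of the members (8 genes with an entry, none for CDKN1C and CCND1). The RB1 entry is an inner start and does not show its main promoter. A match is a run of letters and not a measured site. Each motif holds a CG. The median number of CG dinucleotides was 21.5 in the promoters of the pathway genes and of the members, and 11 over all promoters. The part of CG content in these shares was not tested. Stretches of 30 bases are shown for E2F1 and for genes of its pathway, on the gene's strand with the motif, or its reverse complement, in capitals. In the RBL1 stretch a further TTTGGCGC, nearer to the start, is left in lower case.
E2F1, chr20:33686387-33686416, minus strand: ggcaaaaaggaTTTGGCGCgtaaaagtggc
RBL1, chr20:37096005-37096034, minus strand: cagctgcagatTTTCGCGCgctttggcgca
CDC25A, chr3:48188443-48188472, minus strand: ggtggattccgTTTGGCGCcaactaggaaa
MCM3, chr6:52284898-52284927, minus strand: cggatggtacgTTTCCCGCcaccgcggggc
MCM7, chr7:100101566-100101595, minus strand: cagctcggaccGCGGGAAAcccggcgcctg
PCNA, chr20:5126663-5126692, minus strand: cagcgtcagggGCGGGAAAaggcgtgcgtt
CDT1, chr16:88803743-88803772, plus strand: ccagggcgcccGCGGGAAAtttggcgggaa
A match was found in 13 of the pathway genes, of which 8 were lower, 1 (MDM2) higher and 4 not called between the lines with PAE. Over all genes 27.1% were lower and 27.5% higher. The genes with a match that were not called were PCNA, E2F3 (0.32 ± 0.22), TFDP1 (-0.30 ± 0.22) and LIN52 (-0.64 ± 0.27). The stretches shown are a choice from these 13, and nothing about the group is read from them.

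The remaining roles were as follows for the lines with PAE, where 27.5% of all genes were higher and 27.1% lower. Among cyclin E, cyclin A and CDK2 with its activator CDC25A, 4 of 5 were lower. CDK2 averaged 22.4 CPM in SKOV3/DDP_PAE and 154 CPM in SKOV3_PAE (-2.78 ± 0.23, adjusted p = 1.42e-07), and CCNE1, the gene of cyclin E1, 19.7 and 44.6 CPM (-1.18 ± 0.26, adjusted p = 0.00143). Of 7 genes of CDKN1B and cyclin turnover, 4 were lower and 1 higher. SKP2, which marks p27 for degradation, was lower (-1.87 ± 0.29, adjusted p = 8.41e-05), as was FBXO4, an F-box protein of cyclin turnover (-2.42 ± 0.29, adjusted p = 5.24e-06). The CDK-activating kinase went both ways: its cyclin CCNH was higher (1.63 ± 0.26, adjusted p = 9.65e-05), as was its catalytic subunit CDK7 (1.97 ± 0.78, adjusted p = 0.0443), and its assembly factor MNAT1 was lower (-0.76 ± 0.22, adjusted p = 0.00849). Of 5 genes of MuvB, a complex that binds RB1 relatives or MYBL2, LIN9 and RBBP4 were lower (-1.64 ± 0.22 and -0.86 ± 0.24, adjusted p = 2.08e-05 and 0.00699) and none higher.

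The inhibitors outside the 10 genes split. CDKN1A, which encodes p21, averaged 2324 CPM in SKOV3, 236 in SKOV3_PAE, 1025 in SKOV3/DDP and 1633 in SKOV3/DDP_PAE. It was lower in untreated SKOV3/DDP (-1.18 ± 0.31, adjusted p = 0.0028, but 0.47 with the trend removed) and higher with PAE (2.79 ± 0.33, adjusted p = 5.26e-06). CDKN2D, the gene of p19, was lower in SKOV3/DDP with PAE (-0.84 ± 0.27, adjusted p = 0.0167) and rose with PAE in SKOV3/DDP (1.05 ± 0.28, adjusted p = 0.0134). MDM2, the ubiquitin ligase that ARF binds, was higher in SKOV3/DDP_PAE (351 against 75.0 CPM, 2.23 ± 0.20, adjusted p = 3.24e-07).

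For PAE in SKOV3/DDP, 14 of the 56 pathway genes passed, 3 higher and 11 lower, with a median of 0.0519 beside 0 over all genes. This count is near the 26.4% of all genes that passed. RRM2, a subunit of ribonucleotide reductase, averaged 113 CPM untreated and 41.7 CPM with PAE (-1.44 ± 0.24, adjusted p = 0.000724). CDK2 averaged 43.8 and 22.4 CPM (-0.97 ± 0.22, adjusted p = 0.00601) and RBL2 35.0 and 14 CPM (-1.32 ± 0.33, adjusted p = 0.00949). LIN54, a MuvB subunit, rose from 23.2 to 52.2 CPM (1.17 ± 0.29, adjusted p = 0.00963), while E2F1 (0.04 ± 0.25), CDK4 (-0.75 ± 0.32) and CCNE1 (0.68 ± 0.26) did not pass. The count of 14 was 5 without SKOV3/DDP replicate 1, 6 without SKOV3/DDP_PAE replicate 2, and 8 without SKOV3/DDP replicate 3 or without SKOV3/DDP_PAE replicate 1. Its split was 10 higher and 7 lower under scaling by library size alone, and 9 and 10 with the trend removed.

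Where untreated SKOV3 was used, 51 pathway genes passed between the untreated lines (28 higher and 23 lower, but 9 and 31 with the trend removed), where 81.8% of all genes passed. For PAE in SKOV3 it was 50 (35 higher and 15 lower, but 20 and 8 with the trend removed), beside 75.3% of all genes. The effect of PAE differed for 48, beside 62.9% of all genes (15 and 33, but 8 and 13 with the trend removed and 10 and 37 under library size alone). MYBL2, an E2F target that drives mitotic genes, averaged 1026 CPM in SKOV3 and 28.3 CPM in SKOV3/DDP (-5.18 ± 0.30, adjusted p = 1.43e-09, -3.02 with the trend removed). Scaling by library size alone moved the median of all genes from 0.54 to 1.23 between the untreated lines, from 0.48 to 1.36 for PAE in SKOV3 and from 0.00 to 0.16 for PAE in SKOV3/DDP.

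The tested neighbours of RB1, CDK6 and CCND1 on their chromosomes are given beside these genes. Of 13 tested genes within 1 Mb of RB1, 9 were higher for PAE in SKOV3 and none lower (median 2.01), where RB1 gave 3.64 and 42.6% of all genes were higher. Between the lines with PAE, 8 of these 13 were higher and none lower (median 0.94), where RB1 gave -0.06 and 27.5% of all genes were higher. Of 13 near CDK6 all were higher for PAE in SKOV3 (median 3.87), where CDK6 gave 3.69, or 0.45 with the trend removed. Between the lines with PAE, 2 of these 13 were higher and 3 lower (median -0.442), where CDK6 gave -0.45. The values of the neighbours for PAE in SKOV3 use untreated SKOV3 and are not given with the trend removed. Of 18 near CCND1, 1 was higher and 5 lower for PAE in SKOV3/DDP (median -0.43), where CCND1 gave -2.46, and 14.7% of all genes were lower.

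The 5 genes whose log2(CPM + 1) followed CDKN2A most closely over the 12 libraries, among 9948 genes averaging at least 10 CPM, were TCEA2, PRSS21, SYDE1, RTL8C and RTL8A (Pearson 0.9988 to 0.9994, a description). They lie on chromosomes 20, 16, 19 and X, have 59.9 to 64.4% GC, and averaged at most 0.249 CPM in either SKOV3/DDP group. Among the 5 most like RB1 were UBR1, TCF12, TRIM33 and PCNX4 (Pearson 0.9963 to 0.9980), with 37.7 to 40.8% GC and 4.65 to 6.79 mean CPM in untreated SKOV3 against 47.3 to 90.9 CPM in the other groups. The untreated SKOV3 libraries differed from the others in their dependence on GC content, as given above. Its part in these likenesses was not tested, nor were the likenesses themselves.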

How the data were processed

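RNA of 12 libraries (4 groups of 3) was sequenced from poly(A)-selected NEBNext Ultra libraries. The deposited files hold whole-number counts per gene, made by the authors. HISAT2 2.0.5, StringTie 1.3.3b, DESeq2 and edgeR are named in the submitters' processing notes, without roles, and the genome build is not given in the sources used here. In the files, 7 of the 10 members had a start and an end within 1000 bases of GRCh38.p14, as did 87.6% of 44556 named genes. Rows without a gene name, 0.126 to 0.678% of the counts of a library, were left out.

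Counts were fitted with edgeR 4.0.16 (R 4.3.3): trimmed mean scaling, filterByExpr (17133 genes tested, all 10 members among them), a quasi-likelihood model with 4 group means over the 12 libraries, 2-sided tests and Benjamini-Hochberg adjustment over all tested genes. SE is the absolute log2 fold change divided by the root of F. Scaling factors were 0.644 to 0.674 in untreated SKOV3 and 0.975 to 1.23 elsewhere. The fit was tested on simulated data without a trend on GC content, so that test says nothing of the fit under such a trend. GC content (longest GENCODE transcript) was known for 91.5% of tested genes, and the trend used splines with 5 degrees of freedom as offsets. Alternatives were DESeq2 1.42.0, limma-voom (limma 3.58.1), library size alone, no filter, at least 10 counts in every library, p under 0.05 with an absolute log2 fold change over 2, a replicate block, only the groups compared, and each library left out. No pair of libraries of a group agreed within sampling noise.

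Named were all members, neighbours of CDKN2A with at least 10 counts, and from the pathway list RBL1, RBL2, CDKN1A, CDKN2D, CCND2, CDK4, E2F1 and CCNE1, plus some of the called genes with the largest absolute log2 fold change, up to 2 per role and comparison, among those averaging at least 10 CPM in any group. For the lines with PAE, PCNA, CDC6, MKI67, CCNB1, E2F3, E2F5, E2F6, TFDP1, LIN52, MNAT1, CDC25A, MCM3 and MCM7 fall outside this rule, as do CDT1, TK1 and CCNB1 for PAE in SKOV3/DDP and MKI67 and CCNB1 for the untreated lines, and they were chosen after their values were seen, as were the overlapping genes LPAR6, LOC105369663 and GPR19. Some genes that the rules name are not reported here. Members and lists were chosen with earlier results of these data known. With 3 libraries a group an exact permutation test cannot go below 0.1, so single genes were tested only in the fit across genes.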

Additional observations from a re-analysis of the deposited data

Results flagged for a closer look

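The effect of PAE differed between the lines (the interaction in the edgeR fit) for 6 members. The effect in SKOV3/DDP minus that in SKOV3, on the log2 scale, was -2.27 for MTAP, -2.27 for CDKN1B, -3.58 for RB1, -3.34 for CCND1, 2.92 for CCND3 and -3.94 for CDK6. With the trend on GC content and length removed it was 0.55 for MTAP, -1.71 for CDKN1B, -0.78 for RB1, -3.13 for CCND1, 1.62 for CCND3 and -0.92 for CDK6, and of these CDKN1B, CCND1 and CCND3 passed. Of the pathway genes, it was -3.76 for RBL1, -4.51 for RBL2, 3.97 for CDKN1A, 3.49 for CDKN2D, 1.72 for CDK4, 2.56 for E2F1 and 1.08 for CCNE1. With the trend removed it was -1.04 for RBL1, -2.38 for RBL2, 2.39 for CDKN1A, 0.82 for CDKN2D, 0.49 for CDK4, 0.34 for E2F1 and 0.03 for CCNE1, and the last 3 no longer passed (adjusted p = 0.43, 0.485 and 0.994). All of these values use the untreated SKOV3 libraries. Groups of 3 libraries were not tested for outlying samples.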

How the results depend on the processing

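With the GC and length trend removed, the log2 value reversed between the untreated lines for MTAP (-1.53) and CDKN1C (0.68), for PAE in SKOV3 for MTAP (-1.04), CDKN2C (1.20) and CDKN1C (1.34), for the difference of effects for CDKN2B (1.69), MTAP (0.55) and CDKN2C (-1.64), for PAE in SKOV3/DDP for RB1 (-0.19), and between the lines with PAE for CDKN1B (0.04). The pathway genes called were then 28 for PAE in SKOV3 and 21 for the difference of effects. That difference also reversed under DESeq2 for CDKN2B (0.15) and CDKN1C (0.09), under limma-voom for CDKN1C (0.17) and under library size alone for CDKN2C (-0.40), and none of these 4 passed. At p under 0.05 with an absolute log2 fold change over 2, which calls fewer by construction, the members called were 5 for PAE in SKOV3, 1 for PAE in SKOV3/DDP and 2 for the lines with PAE. The pathway genes were then 29 for the untreated lines, 32 for PAE in SKOV3, 0 for PAE in SKOV3/DDP, 31 for the difference of effects and 18 for the lines with PAE. With each library left out, pathway genes called for PAE in SKOV3/DDP ranged from 5 to 18, the difference of effects from -0.31 to 0.12 for CDKN2B and from -0.57 to 0.55 for CDKN1C, PAE in SKOV3/DDP from -0.23 to 0.26 for RB1 and from -0.74 to 0.05 for CDK6, and the lines with PAE from -0.30 to 0.03 for CDKN1B and from -0.39 to 0.10 for RB1. Same-numbered libraries did not deviate together in every pair (correlations -0.171 to 0.117), so they share only a number. With the replicate block the members called were 10, 10, 2, 6 and 6 and the pathway genes 49, 49, 14, 49 and 43 (untreated lines, PAE in SKOV3, PAE in SKOV3/DDP, difference of effects, lines with PAE), with CDKN1C called at -1.46, -1.18 and -1.33 in the comparisons that gained 1 and reversed to 0.14 for the difference of effects. The causes were not tested. Of the log2 fold changes of single members under an alternative, 886 kept their direction and side of the threshold, 6 weakened, 23 strengthened and 28 reversed. Depth limits what can be said of CDKN1C, and of CDKN2A in SKOV3/DDP.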
